A study of Mus musculus with 12 samples.

Results

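The miRNAs described here are the 13 mature miRNAs of the miR-17-92 cluster and its relatives (miR-106b-25, miR-106a-363, miR-92b and miR-32), and the data are the places in target RNAs to which each was found joined. Peaks were taken as theirs when the annotated peak lists named the small RNA miR-17-5p, miR-20a-5p, miR-20b-5p, miR-93-5p, miR-106a-5p, miR-106b-5p, miR-18a-5p, miR-19a-3p, miR-19b-3p, miR-92a-3p, miR-92b-3p, miR-25-3p or miR-32-5p, and when the target was neither mitochondrial rRNA nor the rRNA-like gene Gm42418. That gave 543 peaks of 250567 in all. The study joined small RNAs to the RNAs they bind inside Argonaute 2 (Ago2) in forebrain homogenates of adult C57BL/6 mice, so that 1 chimeric read names both molecules, and deposited peaks of such reads on mm10. The 12 libraries make 4 lists: excitatory neurons (anti-myc, 3 libraries), whole forebrain replicates 5 to 7 (anti-Ago2, 3 libraries), whole forebrain replicates 1 to 4 (anti-Ago2, 4 libraries) and control IgG1 (2 libraries). Excitatory-neuron libraries came from mice in which a tagged Ago2 (ROSA26 CAG-GFP/Eif2c2 allele) was switched on by the tamoxifen-inducible Camk2a-Cre/ERT2, a driver of forebrain excitatory neurons. Mice received 2 mg tamoxifen intraperitoneally on each of 5 days, waited 14 to 21 days and were 10 to 12 weeks old at harvest. The labels give all libraries the same treatment text, so whether the mice behind the anti-Ago2 and IgG1 libraries carried the tagged allele is left unsaid by them.

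In each list the libraries were pooled before peaks were called, so a list is 1 observation and no value below has a spread between replicates. Intervals are Wilson 95% intervals and cover counting error only, since libraries were amplified and the labels name no molecular identifiers. The lists held 766 peaks (excitatory neurons), 3611 (replicates 5 to 7), 246180 (replicates 1 to 4) and 10 (IgG1). Without mitochondrial rRNA and Gm42418 they held 704, 3020, 242044 and 1. The label of the excitatory list was checked by marker genes. Only 1 of 6 excitatory markers had a peak there (Camk2a), beside 0 of 6 astrocyte, 0 of 6 inhibitory, 1 of 6 oligodendrocyte, 1 of 6 microglial and 0 of 6 vascular markers, so its markers do not settle the label. The calling summaries give the excitatory list and replicates 5 to 7 the same 3 library numbers with different final letters, and whether the 2 lists share mice or tissue is not stated.

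Apart from miR-92b and miR-32, each the only member at its locus, these miRNAs are cut from polycistronic transcripts. Those transcripts are best known for driving cell proliferation, for lowering pro-apoptotic proteins, and for supporting the growth of neural progenitors. A miRNA guides Ago2 mainly through its seed, the stretch of bases near its 5′ end that pairs with the target, usually in a 3′ UTR, where pairing lowers the stability and translation of the mRNA. By seed the 13 fall into 4 groups: the miR-17 group, miR-18a, the miR-19 group and the miR-92 group.

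The mature sequences below, from RefSeq (GRCm38.p6, the assembly of mm10), show what the names in a group share and how little separates some of them; capitals mark the seed, bases 2 to 8 counted from 1 at the 5′ end.
miR-17-5p: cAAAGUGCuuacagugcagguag
miR-20a-5p: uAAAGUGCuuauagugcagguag
miR-106a-5p: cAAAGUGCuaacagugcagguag
miR-93-5p: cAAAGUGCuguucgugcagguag
miR-106b-5p: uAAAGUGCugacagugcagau
miR-18a-5p: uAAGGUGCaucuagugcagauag
miR-19a-3p: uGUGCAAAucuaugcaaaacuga
miR-19b-3p: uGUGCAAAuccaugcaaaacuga
miR-92a-3p: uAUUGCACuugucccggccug
miR-92b-3p: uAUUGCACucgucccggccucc
miR-25-3p: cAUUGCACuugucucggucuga
miR-32-5p: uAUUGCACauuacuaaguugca

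The miR-17-92 cluster lies on the plus strand of chromosome 14, from the first base of miR-17-5p at 115043684 to the last of miR-92a-3p at 115044496. The miR-106b-25 cluster lies on the minus strand of chromosome 5 (miR-106b-5p at 138165787 to 138165807, miR-25-3p at 138165332 to 138165353). miR-92b-3p comes from the minus strand of chromosome 3 at 89227126 to 89227147, and miR-32-5p from the minus strand of chromosome 4 at 56895272 to 56895293. The sequences of miR-19b-3p and miR-92a-3p are encoded on both chromosome 14 and chromosome X, so their peaks cannot be assigned to 1 locus. miR-19a-3p and miR-19b-3p differ by U11C alone, miR-17-5p and miR-106a-5p by U10A, and miR-17-5p and miR-20a-5p by C1U and C12U. Over their shared length miR-92a-3p and miR-92b-3p differ by U10C and G21C. Which of 2 names a chimeric read received can therefore rest on 1 base.

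Nearly all peaks of these miRNAs came from forebrain replicates 1 to 4, and miR-92b-3p led them. That list held 535 of the 543 peaks (0.221% of its peaks, interval 0.203% to 0.241%) on 357 genes. The miR-92 group had 252 peaks, the miR-17 group 176, the miR-19 group 104 and miR-18a-5p 3. miR-92b-3p had 189 and ranked 71 among the 708 small RNAs of the list. miR-19b-3p followed with 100, miR-93-5p with 66 and miR-106b-5p with 47. miR-17-5p (32 peaks) and miR-20a-5p (31) had nearly the same number, and their intervals overlapped. The remaining names were miR-25-3p with 24, miR-92a-3p with 21, miR-32-5p with 18, miR-19a-3p with 4, and miR-20b-5p and miR-106a-5p with 0, which allows at most 0.00124% of the list for each. Counted by origin, the chromosome 3 miRNA alone gave 35.3% of the peaks, the chromosome 5 cluster 25.6%, names made only from chromosome 14 13.1%, names made from both chromosome 14 and X 22.6% and names made only from X none. Peaks are not molecules of miRNA, so these counts order the names by places found, not by abundance.

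**Figure D1:**
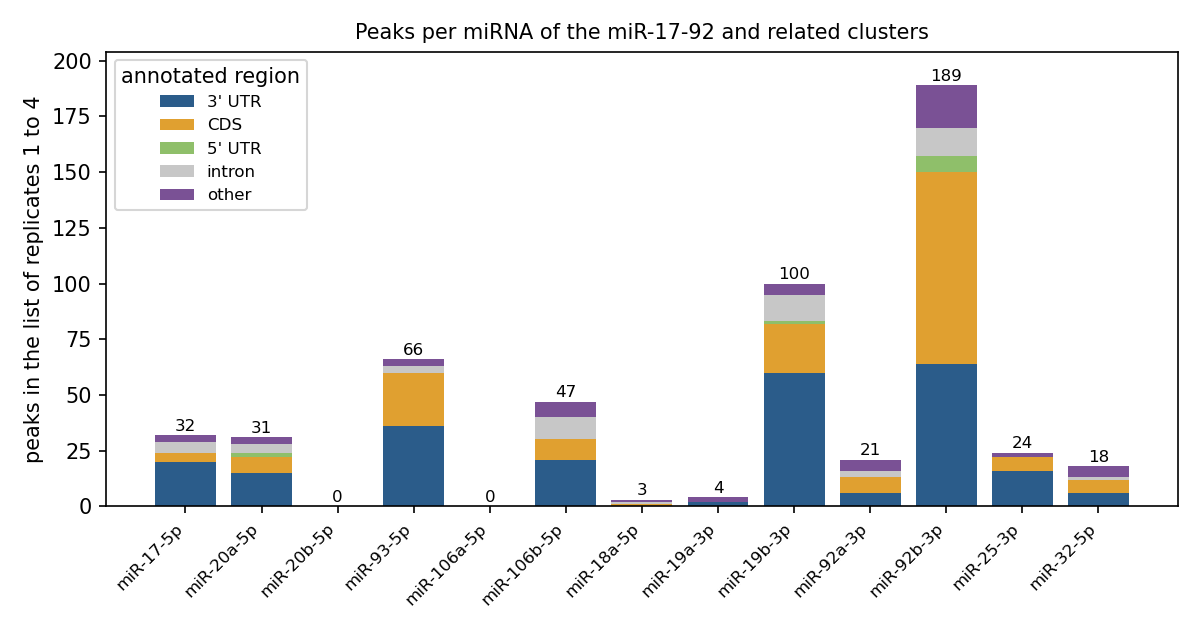
Number of peaks (y axis) of each of the 13 miRNAs (x axis, ordered by seed group) in the list of forebrain replicates 1 to 4, coloured by the annotated region of the target. miR-92b-3p stands highest with 189 peaks, 86 of them in coding sequence, while miR-19b-3p had 60 of 100 in 3′ UTRs and 2 names had none.

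The excitatory list held 0 member peaks of 704, which allows a share of up to 0.426%. At the share seen in replicates 1 to 4 a list of that size would hold 1.56 such peaks, so a lack of these miRNAs in excitatory neurons was not detectable at this depth. Replicates 5 to 7 held 8 of 3020 (0.265%, interval 0.134% to 0.522%), an interval that contains the share in replicates 1 to 4. IgG1 held 0 of the 1 peak left to it, which sets almost no limit (interval 0% to 79.3%). Each miRNA's share was compared between lists with a two-sided Fisher's exact test, adjusted by the Benjamini-Hochberg method over all small RNAs that had at least 10 peaks in both lists together. Of the 9 members tested, 0 passed an adjusted p of 0.05 in excitatory neurons against replicates 1 to 4, and 0 had an unadjusted p below 0.05, where 10 of all 243 small RNAs passed (4.12%). In replicates 5 to 7 against replicates 1 to 4, 0 of the same 9 passed and 1 had an unadjusted p below 0.05, where 7 of 243 passed (2.88%). That one was miR-92a-3p, with 2 of 3020 peaks in replicates 5 to 7 against 21 of 242044 in replicates 1 to 4 (Fisher's exact p = 0.0324, adjusted 0.655). The tests compare lists, not conditions. No member reached 10 peaks in the excitatory list and replicates 5 to 7 together.

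Within replicates 1 to 4 the members' peaks lay mostly in mature mRNA. Of the 535 peaks, 246 were in 3′ UTRs (46.0%, interval 41.8% to 50.2%), against 18.9% of all other small RNAs' peaks. Coding sequence held 32.1% of the members' peaks, against 23.0% of the others'. Introns held 9.72%, against 48.5%, and 15 of the members' 52 intron peaks (28.8%) had their centre outside the annotated intron, against 3.11% of the others'. The pooled 48.5% is not typical of small RNAs with few peaks: the median intron share of the 94 others with 30 to 192 peaks was 15.1% (quartiles 10% and 28.3%), so that the members' share lay close to the lower quartile. The seed groups differed among themselves. The miR-19 group had 59.6% of its peaks in 3′ UTRs (interval 50.01% to 68.5%) and 21.2% in coding sequence. The miR-17 group had 52.3% in 3′ UTRs (interval 44.9% to 59.5%) and 25% in coding sequence. In the miR-92 group coding sequence came first, with 41.7% (interval 35.7% to 47.8%) against 36.5% in 3′ UTRs (interval 30.8% to 42.6%). The 3′ UTR interval of the miR-92 group lay below those of both other groups.

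**Figure D2:**
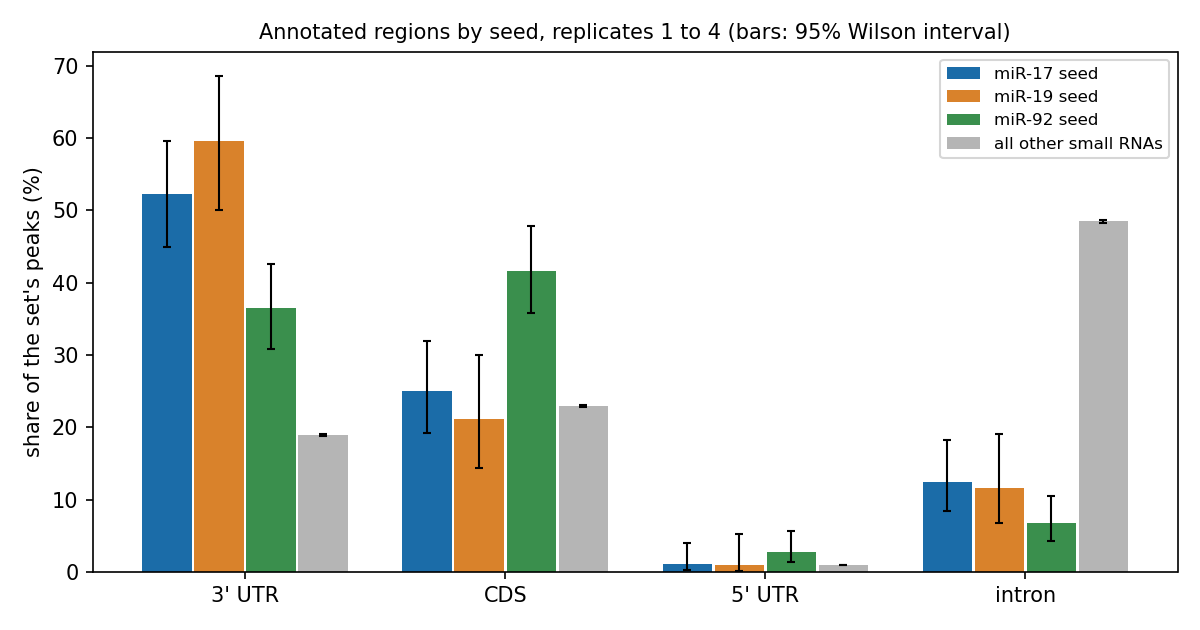
Share of peaks (y axis, percent) in 3′ UTRs, coding sequence (CDS), 5′ UTRs and introns for the miR-17, miR-19 and miR-92 seed groups and for all other small RNAs in forebrain replicates 1 to 4; error bars are 95% Wilson intervals. The miR-92 group is the highest in CDS at 41.7%, and all 3 groups have under 13% in introns, against 48.5% for the other small RNAs pooled and a median of 15.1% for those with 30 to 192 peaks.

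Only 2 members had the 100 peaks needed for the test of each small RNA against the rest of the list. miR-19b-3p had 60% of its 100 peaks in 3′ UTRs against 18.97% of all other peaks (Fisher's exact test, adjusted p = 1.00e-18). miR-92b-3p had 33.9% of its 189 against 18.97% (adjusted p = 3.08e-06). Both passed, but so did 68 of the 97 small RNAs tested in the higher direction (70.1%), so passing does not set them apart. By share miR-19b-3p ranked 1 of these 97 and miR-92b-3p 21. When only CDS and UTR peaks were counted, over small RNAs with at least 30 of them, miR-92b-3p differed from all other peaks by -3.43 points, the other way, and no longer passed (Fisher's exact test, adjusted p = 0.550), whereas miR-19b-3p lay 28.1 points above them (adjusted p = 1.50e-06). Small RNAs with as few peaks also exceeded the pooled share: the 94 others with 30 to 192 peaks had a median of 31.2% (quartiles 21.5% and 39.9%, highest 63.1%). miR-17-5p (62.5%), miR-19b-3p (60%), miR-93-5p (54.5%), miR-20a-5p (48.4%) and miR-106b-5p (44.7%) were all above that upper quartile, and miR-92b-3p was between the quartiles. For coding sequence the same 94 had a median of 33.0% and an upper quartile of 42.1%, and miR-92b-3p, at 45.5%, lay above it.

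**Figure D3:**
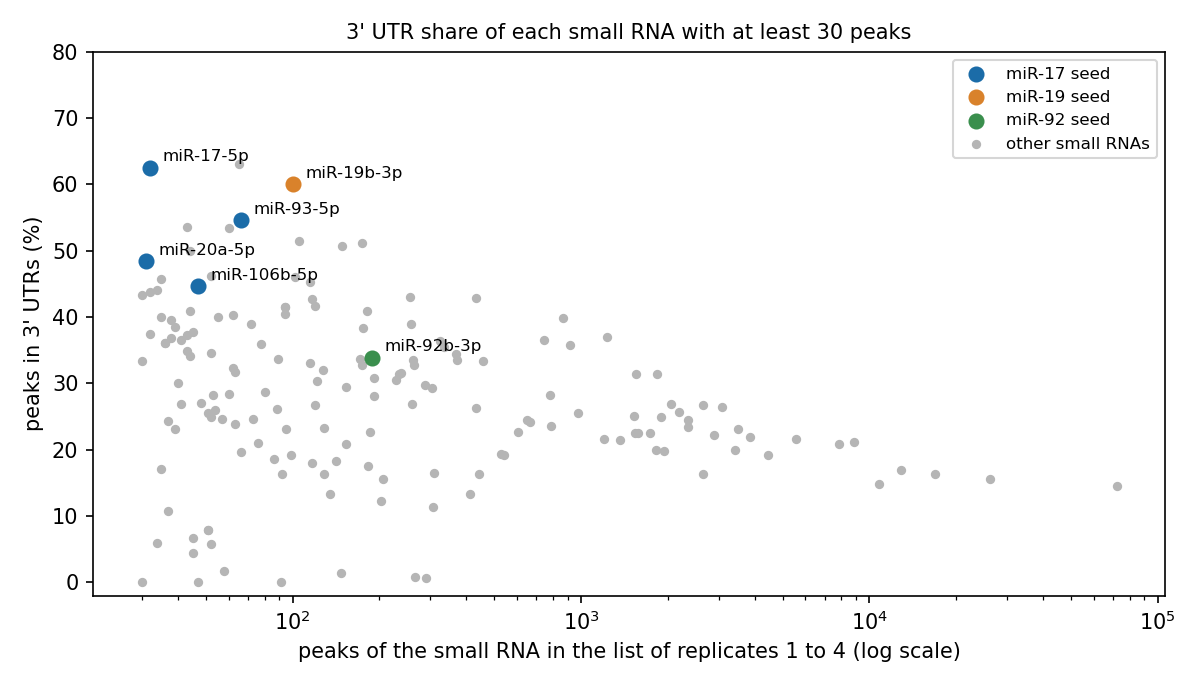
Each point is a small RNA with at least 30 peaks in forebrain replicates 1 to 4, by its number of peaks (x axis, log scale) and the share of them in 3′ UTRs (y axis, percent). The 6 members, in colour, lie at the left with 31 to 189 peaks; miR-17-5p and miR-19b-3p lie near the top at 62.5% and 60%, and miR-92b-3p among the other small RNAs at 33.9%.

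Within the miR-92 group the names with the same seed were not alike in region. miR-25-3p had 16 of 24 peaks in 3′ UTRs (66.7%, interval 46.7% to 82.0%), miR-32-5p 6 of 18 (33.3%, interval 16.3% to 56.3%), miR-92a-3p 6 of 21 (28.6%, interval 13.8% to 49.96%) and miR-92b-3p 64 of 189 (interval 27.5% to 40.9%). The intervals of miR-25-3p and miR-92b-3p did not overlap. This pair was picked after its values were seen and was not tested. Along the annotated 3′ UTR feature, the middle miR-17 group peak lay 28.03% of the way in from the stop codon side, the middle miR-19 group peak 36.9% and the middle miR-92 group peak 48.6%, against 47.0% for all other small RNAs. The quartiles of the miR-17 group (7.25% and 73.8%) overlapped those of the others (20.9% and 75.3%).

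Outside the surroundings of Gm42418 (5000 bases on either side, on its strand), the 5 peaks with the highest scores all belonged to miR-92b-3p and lay in coding sequence. The score is the authors' whole number for a peak, with a lowest value of 3, and its definition is not given in the sources used here. Just upstream of Gm42418 and annotated as intergenic, 1 place carried peaks of miR-92b-3p (73), miR-93-5p (57) and miR-19b-3p (39), among 10 member names. Of the miR-92 group's peaks 15.1% scored 10 or more, of the miR-17 group's 5.11% and of the miR-19 group's 4.81%, against 12.0% of all other small RNAs' peaks. The miR-92b-3p peak in the coding sequence of Ctnnb1 scored 89, the highest of any member (chr9:120950900-120950917, plus strand). Ctnnb1 encodes beta-catenin, which links cadherins to the cytoskeleton and carries the Wnt signal. miR-92a-3p had a peak of score 16 at the same place, found again in replicates 5 to 7 with score 3. Sparcl1, which encodes hevin, a protein that astrocytes secrete and that promotes synapse formation, held 4 coding-sequence peaks of miR-92b-3p, with scores of 46, 44, 14 and 7. Glul, the glutamine synthetase of astrocytes, held 3, with scores of 44, 27 and 3. A glutamine synthetase pseudogene, Glns-ps1, held another of score 13, so reads of these similar sequences could be split between the genes.

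Further high miR-92b-3p peaks followed. Mdh1, the cytosolic malate dehydrogenase, had a coding-sequence peak of score 41. Cpe, the carboxypeptidase E that trims prohormones, had adjacent 5′ UTR peaks of scores 37 and 33. Coding-sequence peaks scored 30 on Gpm6b (a membrane glycoprotein of neurons and glia), 27 on Mt3 (the metal-binding metallothionein 3) and 17 on Apoe (the main lipid carrier of the brain). Several of these genes are known to be high in astrocytes. On the 6 astrocyte markers listed, the miR-92 group had 6 of its 252 peaks (2.38%, interval 1.10% to 5.10%), the miR-17 group 2 of 176 (1.14%) and the miR-19 group 0 of 104, against 0.375% of all other small RNAs' peaks. Of the 8 peaks in total, 6 lay on Slc1a2, the main glutamate transporter of astrocytes, and 1 each on Gfap and Aqp4. Scores of the 8 peaks ran from 3 to 8. Only 3 of the 6 markers thus held a member peak, and Slc1a3, Aldh1l1 and Gja1 held none. Slc1a2 had 716 peaks of any small RNA. Whether these shares move with how many peaks a gene holds, or with the region, was not tested. No member had a peak on any of the 6 markers of excitatory neurons, inhibitory neurons, oligodendrocytes, microglia or vascular cells. The other small RNAs had 0.253%, 0.0398%, 0.130%, 0.0331% and 0.0265% of their peaks there, in that order. At such shares 535 peaks would hold few or none, so these absences do not set the members apart. Peaks in whole forebrain do not tell in which cell a miRNA met its target, and whether the amount of these mRNAs moves with the peaks was not tested.

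**Figure D4:**
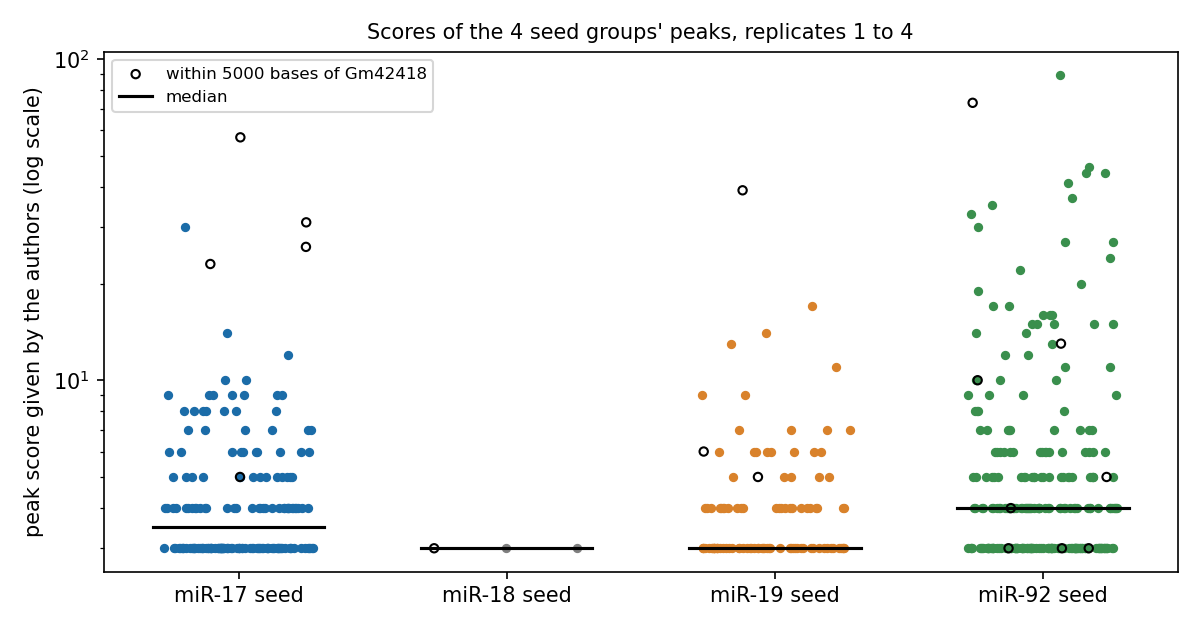
Authors' score of each peak (y axis, log scale) by seed group in forebrain replicates 1 to 4, with the group's median as a line; open circles are peaks within 5000 bases of Gm42418. Most peaks sit at 3 to 5, and apart from the open circles the scores above 30 all belong to the miR-92 group, up to 89.

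In 3′ UTRs the 5 highest miR-92 group peaks were those of miR-92b-3p on Syn2, Kcna2, Vldlr, Rora and Rbfox2, an RNA-binding protein gene (score 16). Kcna2, which encodes a voltage-gated potassium channel of axons, held overlapping peaks of miR-92b-3p (score 22), miR-25-3p (15) and miR-92a-3p (3) at chr3:107110871-107110907. Rora, a nuclear receptor gene, held miR-92b-3p (19), miR-32-5p (8) and miR-25-3p (3) at chr9:69383134-69383174. Vldlr, a receptor for reelin, held miR-92b-3p (20) and miR-92a-3p (11) at 1 place. Cpeb4, whose protein controls translation through polyadenylation, held miR-92b-3p (11), miR-25-3p (6) and miR-32-5p (3). Syn2, which encodes the synaptic vesicle protein synapsin 2, held miR-92b-3p (24) and miR-92a-3p (3). Outside mRNA, all 4 members of the group shared 1 place in the lincRNA gene 1700020I14Rik, chr2:119602057-119602075 on the plus strand, with scores of 35 for miR-92b-3p, 17 for miR-92a-3p, 14 for miR-25-3p and 3 for miR-32-5p. miR-92a-3p had the peak in replicates 5 to 7 too, with score 5.

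The miR-17 group's peaks were lower in score and often carried several names. Epha4, an ephrin receptor of axons and synapses, held miR-93-5p (score 12), miR-20a-5p (9), miR-17-5p (5) and miR-106b-5p (3) at chr1:77373654-77373702 on the minus strand, near the start of the 3′ UTR. Ptpn4, a tyrosine phosphatase gene, held the same 4 names at chr1:119659686-119659709, with scores of 9 for miR-106b-5p, 9 for miR-20a-5p, 8 for miR-93-5p and 6 for miR-17-5p. Sema7a, which encodes a membrane-anchored semaphorin, held 3 names with scores of 10, 8 and 5. Ttc3, a ubiquitin ligase gene, held miR-93-5p (14) and miR-17-5p (6). In coding sequence Nckap1, of the actin-regulating WAVE complex, held miR-93-5p (9), miR-20a-5p (4) and miR-106b-5p (3), Gramd1b, which encodes a sterol carrier, held 3 peaks of 4 to 7, and Pon2, a paraoxonase gene, 3 peaks of 3 or 4. The highest miR-17 group peak outside rRNA surroundings, miR-106b-5p with score 30, was annotated as intergenic (chr12:109578017-109578030, plus strand). It overlapped miR-93-5p (8) and miR-20a-5p (3), and the merged place of the 3 names spans 109578011 to 109578048.

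Both inhibitors of calcium/calmodulin-dependent kinase II were among the genes with most member peaks. On Camk2n2, 5 of the gene's 9 peaks (55.6%) belonged to the miR-17 group: miR-17-5p (5), miR-93-5p (4) and miR-106b-5p (3) at 1 place of the 3′ UTR, and miR-106b-5p (3) and miR-17-5p (3) at another. Camk2n1 was the only gene with peaks of 3 seed groups. Its 6 peaks, of 169 on the gene, were miR-92b-3p in coding sequence (score 7) and, in the 3′ UTR from its start onwards, miR-32-5p (6) with miR-25-3p (5), then miR-106b-5p (6) with miR-17-5p (4), then miR-19b-3p (4). In all, 13 of the 357 genes held peaks of more than 1 seed group. Beside Camk2n1, Slc1a2, Cadm2 (a synaptic adhesion molecule) and Serinc1 (a membrane protein) were the genes with more than 1 group in the 3′ UTR. Most genes, 264 of 357, held a single member peak.

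miR-19b-3p peaks mostly carried no other member name, though 48.5% of the miR-19 group's peaks overlapped some other small RNA. Outside the Gm42418 surroundings its highest lay in the coding sequence of Tmbim6 (score 17), which encodes an inhibitor of cell death in the endoplasmic reticulum. In the 3′ UTR it had score 14 on Cnksr2, a scaffold of the postsynaptic density, where miR-19a-3p also had a peak (4). Scores of 9 were found in the 3′ UTRs of Crebrf and Tor1b. Qk, the RNA-binding protein quaking, and Rnf11, a ubiquitin ligase gene, each held 2 separate 3′ UTR peaks, with scores of 6 and 5 on Qk and of 4 and 3 on Rnf11. Cltc, the clathrin heavy chain, held 2 in coding sequence (6 and 3), as did the uncharacterised gene 9930021J03Rik (7 and 6), and Gpcpd1 held 1 in coding sequence (4) and 1 in the 3′ UTR (3). Mycn, the MYC relative of the nervous system, held miR-19b-3p (4) and miR-19a-3p (3) and had only 6 peaks of any small RNA. miR-18a-5p had peaks on 1 gene alone, Sv2b, a synaptic vesicle protein, with 2 peaks of score 3. One is annotated as coding sequence and ends where an intron begins, and the other is annotated as that intron but lies beyond its far edge except for 1 base.

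Names of 1 seed group stacked at the same places, and names of different groups rarely did. The 535 peaks merged into 431 places, of which 73 carried several member names. In the miR-17 group 51.1% of peaks were at such places, in the miR-92 group 30.2% and in the miR-19 group 7.69%. Only 3 places held more than 1 seed group, and 2 of them lay within 5000 bases of Gm42418. The other (chr3:5860611-5860695, annotated as intergenic) held 6 member names and, at a peak, up to 210 small RNAs. Outside the Gm42418 surroundings all 3 miR-19a-3p peaks overlapped a miR-19b-3p peak, 13 of 19 miR-92a-3p peaks and 12 of 17 miR-32-5p peaks overlapped miR-92b-3p, and 11 of 23 miR-25-3p peaks did. Whether names as close as these took each other's reads was not tested. miR-32-5p shares the seed with miR-92b-3p but differs from it at 11 of 22 bases.

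The miR-92 group also shared places with miR-137-3p, a brain miRNA with another seed. Both sequences hold the run UAUUGC, at bases 1 to 6 of miR-92b-3p and bases 2 to 7 of miR-137-3p, and miR-19b-3p and miR-301a-3p share GUGCAA, at bases 2 to 7 of miR-19b-3p and 3 to 8 of miR-301a-3p; the sequences are printed to show the offset.
miR-137-3p: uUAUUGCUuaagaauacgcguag
miR-301a-3p: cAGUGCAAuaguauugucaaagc

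Outside the Gm42418 surroundings 44 of 244 miR-92 group peaks overlapped a miR-137-3p peak (18.0%, interval 13.7% to 23.3%). The share was 2.34% in the miR-17 group, 3.96% in the miR-19 group and 0.789% over all other small RNAs. These 44 peaks lay on 24 genes, 24 of the peaks in 3′ UTRs and 9 in coding sequence, and met 28 of the 1825 miR-137-3p peaks (1.53%). The Kcna2, Rora, Vldlr and 1700020I14Rik places above were among them, with miR-137-3p scores of 49 and 57 on Kcna2, 6 on Rora, 4 on Vldlr and 5 on 1700020I14Rik. So were 3′ UTR places on Slc12a5 (the neuronal chloride exporter KCC2), Hcn2 and Scn8a (cation and sodium channels) and Dnmt3a (a DNA methyltransferase). The miR-19 group overlapped miR-301a-3p in 9 of 101 peaks (8.91%, interval 4.76% to 16.1%), against 0.185% over all other small RNAs, with Tmbim6 and both 9930021J03Rik peaks among them. These partners were picked after the overlaps were ranked, and no test was made. For a common small RNA with another seed the shares were closer: 18.4% of miR-92 group, 23.8% of miR-19 group and 18.7% of miR-17 group peaks overlapped miR-124-3p, against 14.7% of all other small RNAs' peaks. Among CDS and UTR peaks alone these shares were 19.1%, 23.5% and 18.8%, in that order, against 19.3%. There the miR-92 and miR-17 groups did not lie above the others. By merged place, 62.7% of the members' peaks lay with another name, other member names included, against 34.9% of the others'. The others had 48.7% of their peaks in introns, against 10.0% of the members', and this share was not taken among CDS and UTR peaks alone.

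**Figure D5:**
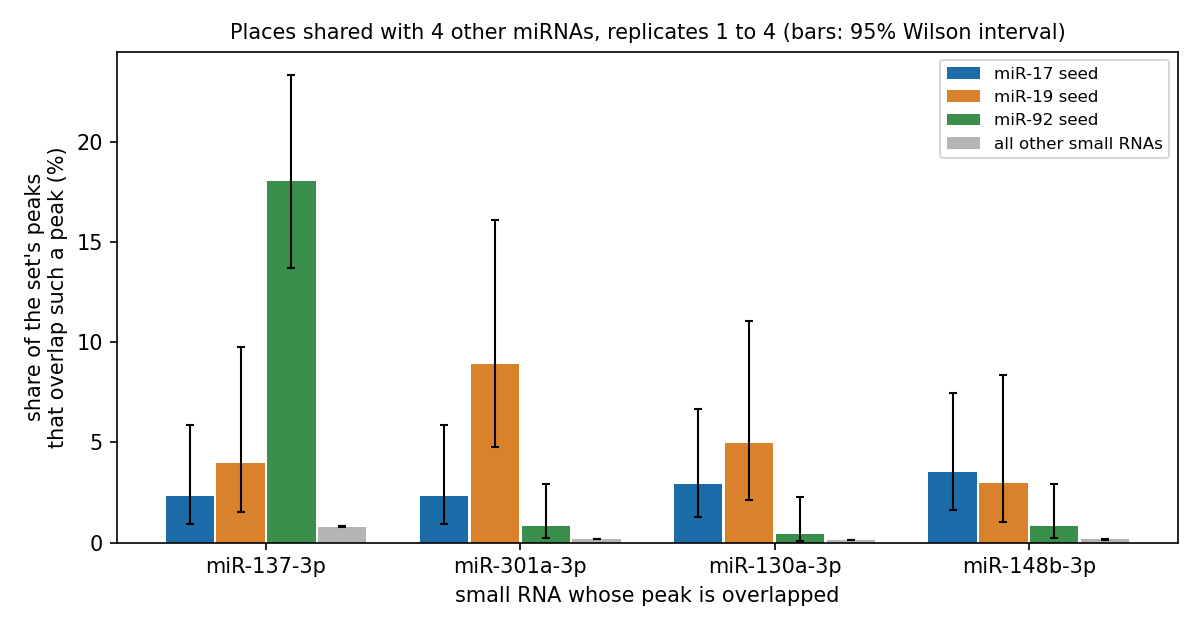
Share of each seed group's peaks (y axis, percent) that overlap a peak of miR-137-3p, miR-301a-3p, miR-130a-3p or miR-148b-3p (x axis) in forebrain replicates 1 to 4 outside the Gm42418 surroundings, beside all other small RNAs; error bars are 95% Wilson intervals. The miR-92 group stands highest for miR-137-3p at 18.0%, and the miR-19 group for miR-301a-3p at 8.91%.

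A list of 60 published targets, drawn up with earlier results of these data known, was then looked up by gene symbol. Of the 54 with any peak in replicates 1 to 4, 13 held a member peak (24.1%), against 357 of 11349 genes (3.15%), a description with no test; whether the targets' length or abundance moves with it was not tested. Pik3r3, a regulatory subunit of PI3-kinase, was met by miR-19b-3p in the 3′ UTR (score 4). Of the cell cycle genes 1 of 10 was, Ccnd1 (cyclin D1), with miR-93-5p in coding sequence (8 and 4). Of the apoptosis and stress genes 3 of 7 held a member peak. Mcl1, which protects from apoptosis, was met in coding sequence by miR-92b-3p (5) and miR-32-5p (3). miR-20a-5p met Txnip in the 3′ UTR (3) and Trp53inp1 in the 5′ UTR (3). Of TGF-beta and BMP receptors and SMADs 2 of 9 held one, both in the 3′ UTR. These were the receptors Acvr1b, by miR-106b-5p (6) and miR-17-5p (3), and Tgfbr2, by miR-93-5p (4). Of the neuronal targets 5 of 13 held one. Epha4 was met as above. In the 3′ UTR Slc12a5 was met by miR-32-5p (4) and miR-92b-3p (3), and Itgb8 by miR-93-5p and miR-20a-5p (3 each). In coding sequence Stat3 was met by miR-93-5p (3) and App by miR-19b-3p (3). Of 4 autophagy genes 0 held a member peak. Well-covered targets without a member peak included Gria1 (144 peaks of other small RNAs), Rapgef2 (119) and Nlk (104).

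Of the 8 member peaks in replicates 5 to 7, 6 were found again in replicates 1 to 4 under the same name (75%, interval 40.9% to 92.9%), against 88.9% of all other small RNAs' peaks. With any name of the seed group 7 were found and with any small RNA 8. Of these peaks, 3 lay beside Gm42418. The others were miR-92a-3p on 1700020I14Rik (score 5) and Ctnnb1 (3), miR-92b-3p on Sparcl1 (4) and on Nup98, a nucleoporin gene (3), and miR-17-5p on Mtus1, a microtubule-associated tumour suppressor gene (3). The Nup98 peak had no member peak at its place in replicates 1 to 4, and the Mtus1 place held miR-20a-5p (8) and miR-93-5p (7) there. Places of the members were seen in the excitatory list through other small RNAs. Of the 535 peaks, 29 lay at a place with any excitatory peak (5.42%), against 1.60% of all other small RNAs' peaks, but only 8 of the 29 lay on genes, 4 of them on Epha4. Without the Gm42418 surroundings the count was 15 of 518 (2.90%, interval 1.76% to 4.72%), against 1.32%. On genes it was 8 of 518, against 2677 of 240590 for the others. The rest of the 15 were intergenic peaks between 5860611 and 5860749 on chromosome 3, a stretch with up to 210 small RNAs at a peak. For replicates 5 to 7 the count without these surroundings was 47 of 518 (9.07%, interval 6.89% to 11.9%), against 4.45%. On genes it was 39 of 518, against 9647 of 240590. Of the 357 genes, 55 had some excitatory peak (15.4%), against 4.02% of all genes with a peak in replicates 1 to 4, and 166 had one in replicates 5 to 7 (46.5%), against 12.9%. The excess was thus seen in both lists, and whether it moves with how many peaks a gene holds was not tested.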

How the data were processed

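Peaks were called by the authors over the pooled libraries of each group on mm10 with miRBase mouse names, requiring 3 or more reads from 2 or more libraries for a peak, per the deposited calling summaries; the build is also in the submitters' processing notes. No aligner or caller is named there. The deposited score is a whole number per peak, not scaled to depth. Per the labels' protocols, homogenates received 3 rounds of ultraviolet light, and libraries were sequenced with paired reads of 150 bases at 61 to 138 (in units of 1e6) reads each; depth by library was not given.

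Members, seed groups, gene lists and named genes were chosen with earlier results of these data known. Genes named are those with most member peaks in CDS and UTRs per seed group, the highest-scoring peaks, all peaks of replicates 5 to 7, genes with several seed groups and the listed targets; the others, such as those sharing places with miR-137-3p, were chosen after their values were seen. Some genes that this rule names are not reported here. Shares were compared by Fisher's exact test (two-sided, scipy 1.17.1, Benjamini-Hochberg), checked on simulated lists. Peaks overlapped if they shared at least 1 base on 1 strand. Peaks at 1 place are counted separately, as if independent. All 13 names matched a RefSeq mature sequence. Target sequences were not read, since no genome was used here, so seed matches in peaks are not analysed here.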

Additional observations from a re-analysis of the deposited data

Results flagged for a closer look

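The rule left out 45 member rows of replicates 1 to 4 that lie on mitochondrial rRNA or Gm42418 (21 on Gm42418, 15 on mt-Rnr1 and 9 on mt-Rnr2, with scores up to 83), and 2 such rows of replicates 5 to 7, both on Gm42418. They are signal outside the comparisons. IgG1 is too small for a contrast, with 10 peaks in all, 9 of them on these same RNAs and joined to small RNAs other than the members. Just upstream of Gm42418, at chr17:39846887-39846913 and annotated as intergenic, 1 place carried 10 member names and up to 268 small RNAs, and 17 member peaks of replicates 1 to 4 and 3 of replicates 5 to 7 lay within 5000 bases of that gene. RefSeq places the rRNA gene Rn18s-rs5 there. Peaks of the partner arms, the strands usually discarded from the same hairpins, were found in replicates 1 to 4, 1 each for miR-17-3p, miR-93-3p, miR-106a-3p, miR-106b-3p and miR-19b-2-5p, 5 in all.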

How the results depend on the processing

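Members made 0.236% of replicates 1 to 4 with rRNA rows kept and 0.215% without the Gm42418 surroundings (an alternative chosen after seeing the data). The share was 0.202% at or above the median score, 0.197% with overlapping peaks of one seed merged, 0.184% by summed scores, 0.412% among CDS and UTR peaks and 0.535% among 3′ UTR peaks. In replicates 5 to 7 it was 0.0824% among 3′ UTR peaks, 1 peak. Excitatory neurons held 0 member peaks in every alternative run and 0 members passed between lists, which says nothing of stability, since 1.56 peaks would be expected there and 0 members could be tested with the larger list reduced. The members' 3′ UTR share was 57.5% with CDS and UTR peaks as denominator. By that test (Fisher's exact), members past the threshold for the 3′ UTR share were 6 of 6 at a minimum of 30 peaks. There 106 of all 168 small RNAs passed in the higher direction, so passing does not set the 6 apart. Members past it were 0 of 1 tested at or above the median score and 0 of 1 with CDS and UTR peaks as denominator. Without the Gm42418 surroundings they were 1 of 1, where a minimum of 100 peaks removes miR-19b-3p. Counts over all small RNAs are not given for these last settings. By Fisher's exact test, miR-92b-3p exceeded all other peaks by 4.95 points at or above the median score (adjusted p = 0.281, at least 30 peaks) and differed by -3.43 points with CDS and UTR peaks as denominator; the cause was not tested. Recurrence was 37.5% at a reciprocal overlap of 50%, 75% with centres within 20 bases and 60% without the Gm42418 surroundings. Published targets with a member peak numbered 8 at or above the median score. The overlap with miR-137-3p was 16.2% among CDS and UTR peaks and 17.1% at or above the median score, both alternatives chosen after seeing the data. Seed matches in peaks were not run. No paired analysis was possible because libraries were pooled before peaks were called, and for the same reason no replicate could be left out.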
